A study of Mus musculus with 98 samples.

Results

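The Ly51+gp38- cells of the newborn mouse thymus, a sorted population taken as mural cells, were compared with the gp38+ fibroblasts sorted from thymi of the same age. The members are 18 of the 98 samples of the series, chosen by their sample names as 6 bulk RNA-seq libraries of Ly51+gp38- cells, 6 of gp38+CD26+ fibroblasts and 6 of gp38+CD26- fibroblasts at postnatal day 0 (P0, the day of birth). All 18 came from wild-type mice, which the study bred in-house on a C57BL/6 background, with no treatment. Stromal tissue was digested with Liberase and DNase, live CD45- cells were sorted on Ly51 (the aminopeptidase encoded by Enpep), gp38 (podoplanin, Pdpn) and CD26 (dipeptidyl peptidase-4, Dpp4), and RNA was turned into libraries by an ultra-low-input protocol. The study defines its nonepithelial stroma as Ter119-CD45-EpCAM- and takes CD31+ endothelial cells as a separate population. Wild-type libraries of the same 3 populations at 4 weeks of age (W4, 18 libraries) and 2 single-cell P0 libraries were used as separate looks at the same difference. The sort is a surface-marker gate and not a lineage: it takes pericytes and vascular smooth muscle cells together, and nothing in the labels says whether the libraries came from separate mice, so p-values here measure only the spread between these libraries. As in any bulk sample, fewer cells of a type and less RNA per cell cannot be told apart.

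Mural cells wrap the endothelial tube of blood vessels. Pericytes sit on capillaries inside the vascular basement membrane, whereas vascular smooth muscle cells form contractile layers around arteries and veins, and both are recruited and held in place by signals exchanged with endothelium, among them PDGF-B to PDGFRβ, Notch3 with Jagged1, and the angiopoietins. In the thymus they line the perivascular spaces through which progenitors enter and mature T cells leave, while the gp38+ fibroblasts build the capsule and the matrix of the medulla.

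Values are CPM, gene counts scaled to a common library size with TMM factors. Differences are log2 fold changes of mural cells minus the mean of the gp38+CD26+ and gp38+CD26- groups. A gene was called when edgeR's quasi-likelihood test gave a Benjamini-Hochberg adjusted p under 0.05 over the 13052 genes tested and the difference was over 1 on the log2 scale. The 18 libraries held 8454267 to 15852166 gene counts with 12033 to 15092 genes detected. gp38+CD26+ replicate 4 stood apart: it had the fewest genes, the highest share of reads in no gene (16.6%) and the lowest Pdgfrb (6.95 CPM), Col1a1 (8297 CPM) and Timp3 (83.8 CPM) of its group. Without it 844 genes were higher and 819 lower, and all 72 of the called genes described with library values below were called in the same direction.

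The genes of the sort behaved by and large as the gate. They are given as a check of the labels and not as results. Pdpn, which encodes gp38, stood at 2.19 to 15.1 CPM (median 6.94) in mural, 442 to 708 CPM (median 489) in gp38+CD26+ and 213 to 377 CPM (median 231) in gp38+CD26- libraries. Dpp4, which encodes CD26, stood at 0 to 0.189 CPM (median 0) in mural, 132.3 to 486 CPM (median 255) in gp38+CD26+ and 0 to 27.6 CPM (median 7.35) in gp38+CD26- libraries. Enpep, which encodes Ly51, stood at 17.9 to 52.5 CPM (median 38) in mural, 0 to 15.5 CPM (median 3.39) in gp38+CD26+ and 7.93 to 39.4 CPM (median 29.1) in gp38+CD26- libraries, so that the mural libraries lay above the gp38+CD26+ libraries but overlapped the gp38+CD26- ones. Its difference of 1.63 ± 0.68 (an approximate SE, derived from the F value of the test) did not pass (adjusted p = 0.12). It was called higher by limma voom and, in edgeR, against gp38+CD26+ cells alone (2.88).

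The label was checked against defining markers, with list sums given as CPM of the library total, without TMM factors. Over the 24 pericyte genes the summed level was 41190 to 52810 CPM (median 47210) in mural libraries against 3401 to 4169 CPM (median 3690) in gp38+CD26+ and 6355 to 8185 CPM (median 7008) in gp38+CD26- libraries. Rgs5 made up most of the mural sum, and without it the sums were 14190 to 15530 CPM (median 15170) against 3379 to 4164 CPM (median 3683) and 5618 to 6880 CPM (median 6361) in the same order. The 20 fibroblast identity genes summed to 3306 to 5976 CPM (median 4088) in mural libraries, against 29960 to 32570 CPM (median 31130) and 18750 to 20880 CPM (median 19700) in the 2 fibroblast groups in that order. Markers of most other cells were low in mural libraries. The 12 endothelial genes summed to 82.7 to 172.7 CPM (median 120.3) in mural cells against 11240 to 17600 CPM (median 15770) in sorted CD31+ cells of the same age, with Cdh5 (VE-cadherin) at 0 in all 6 mural libraries and Emcn making up much of the sum. Thymic epithelial genes summed to 28.7 to 308 CPM (median 143.2), with Epcam, Krt14, Cldn4 and Aire at 0, thymocyte and haematopoietic genes to 8.81 to 32.5 CPM (median 24.9), and mesothelial genes to 0 to 9.54 CPM (median 6.38) with Msln, Upk1b and Lrrn4 at 0. Mesothelial genes were higher in the fibroblast libraries, at 27.7 to 578 CPM (median 108.1) in gp38+CD26+ and 2.98 to 321 CPM (median 52.4) in gp38+CD26- cells, and 3 of 4 tested (Upk3b, Wt1 and Upk1b) were called lower in mural cells, against 1 by limma voom. Their part in the lower genes was not tested. The 13 neural crest and glial genes summed to 363 to 608 CPM (median 389) in mural, 20.9 to 59.5 CPM (median 51.2) in gp38+CD26+ and 66.9 to 343 CPM (median 106.7) in gp38+CD26- libraries, and of 5 tested Ednrb and Fabp7 were called higher in mural cells. Ednrb, which vessel cells also use, made up most of the mural sum, and the defining glial genes Sox10, Foxd3 and Cdh19 were at 0 in every mural library.

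At P0, 736 genes were higher in mural cells (5.64% of the 13052 tested) and 753 were lower (5.77%). Of the 736, 362 had every mural library above every fibroblast library, and of the 753, 329 had every mural library below. Over all genes tested, 412 (3.16%) lay wholly above and 381 (2.92%) wholly below, called or not. The median difference over all genes tested was 0.00, so that the values that follow can be read against 0. Counts of called genes in each list at P0 can be read against the shares of 5.64% higher and 5.77% lower. Many genes described from the lists were chosen for the smallest p in these same libraries. That choice favours groups that do not overlap, so statements of no overlap below are descriptions and no added support.

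**Figure D1:**
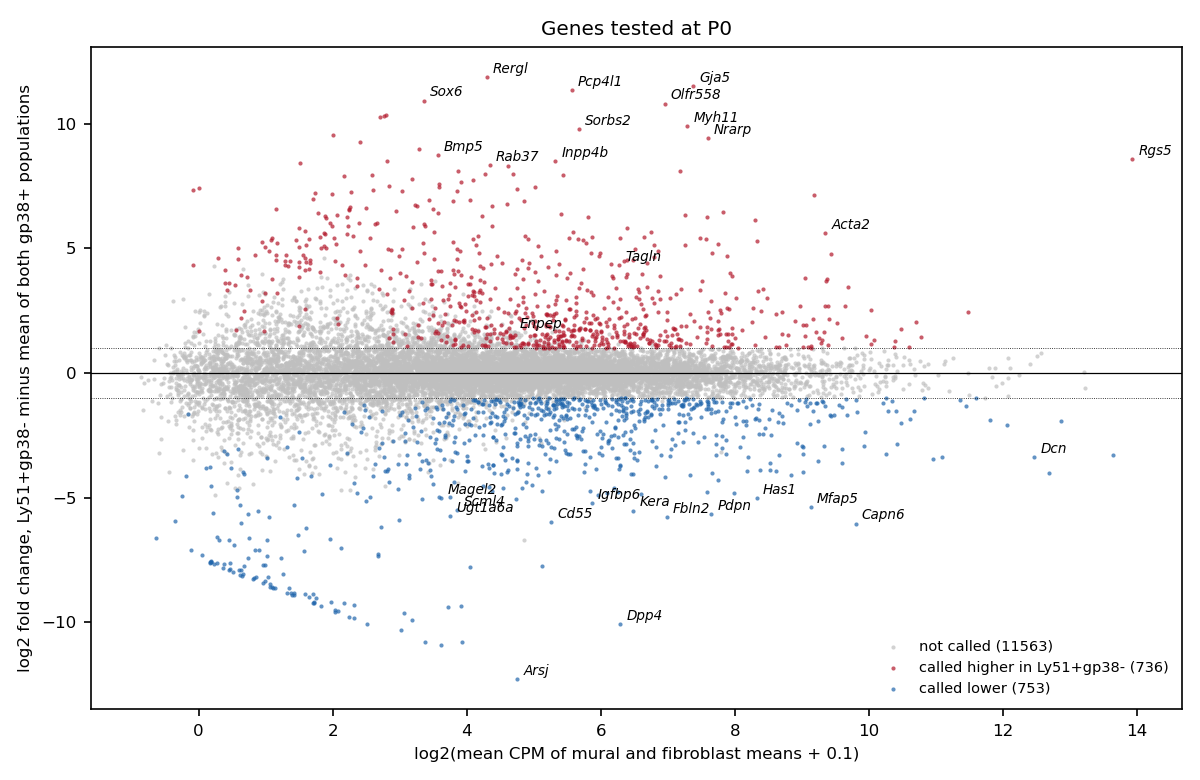
Each point is 1 of the 13052 genes tested at P0, with the mean CPM on a log2 axis (x) and the log2 fold change of Ly51+gp38- cells minus the mean of both gp38+ populations (y). The 736 called higher genes and 753 called lower genes are coloured, and the genes of the sort and those with the largest changes are named.

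The 12 genes with the largest rise, each with at least 20 CPM and no overlap between groups, were led by genes at or near 0 in fibroblasts. Rergl, a small GTPase-like gene of vascular smooth muscle, ranged over 15.3 to 71 CPM (median 36.4) in mural, no counts in gp38+CD26+ and no counts in gp38+CD26- libraries. With no count in any fibroblast library it was at least 1802-fold higher, taken against 3 counts over the group. Sox6, an HMG-box transcription factor, was likewise seen in mural cells alone among these libraries, at 5.38 to 31.9 CPM (median 22.7), at least 980.1-fold higher. In most of the others the gp38+CD26+ libraries were at 0 as well. The size of the fitted mean then depends on the small count added before logs, so the difference from gp38+CD26- cells is given. Genes described further below also had gp38+CD26+ medians near 0, among them Higd1b, Art3, Vtn, Ednrb, Epas1, Pdgfa, Itga7, Esam and Gja4. Their mean differences are larger than their differences from gp38+CD26- cells. Gja5, the gap junction protein connexin 40 of arteries, stood at 190.8 to 530.1 CPM (median 329.6) in mural, no counts in gp38+CD26+ and 0 to 6.47 CPM (median 0) in gp38+CD26- libraries, with a difference of 8.06 from gp38+CD26- cells. As the gp38+CD26- median was 0 too, the size of this difference also depends on the added count. Myh11, the smooth muscle myosin heavy chain, stood at 233 to 383 CPM (median 302) in mural, no counts in gp38+CD26+ and 1.21 to 27.5 CPM (median 6.85) in gp38+CD26- libraries, with a difference of 4.95 from gp38+CD26- cells. For both, all mural libraries were above all fibroblast libraries, which the rule of choice required.

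The other genes of that group were Pcp4l1, a relative of Pcp4 (9.52 against gp38+CD26- cells), Olfr558, an olfactory receptor also found in vascular smooth muscle (7.07), Sorbs2, an adaptor between actin and focal adhesions (6.34), Inpp4b, a phosphoinositide phosphatase (4.13), Rab37, a small GTPase of exocytosis (4.79), Bmp5, Nrarp and Rgs5. Nrarp, a direct Notch target that feeds back on the pathway, stood at 142 to 678 CPM (median 332) in mural, 0 to 0.0944 CPM (median 0) in gp38+CD26+ and 1.14 to 28.3 CPM (median 8.33) in gp38+CD26- libraries. Rgs5, a brake on G protein signalling and the classic marker of pericytes, stood at 23473 to 37257 CPM (median 31325) in mural, 0.0944 to 24 CPM (median 4.23) in gp38+CD26+ and 522 to 1392 CPM (median 701) in gp38+CD26- libraries. The rule of choice required that every mural library be above every fibroblast library. The Rgs5 difference was 8.59 ± 0.58 (edgeR adjusted p = 3.5e-09), made of 11.91 against gp38+CD26+ and 5.27 against gp38+CD26- cells.

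The 12 genes with the largest fall, chosen by the same rule, held several secreted and matrix proteins. Arsj, an arylsulfatase, had no count in the 6 mural libraries and 31.9 to 102.5 CPM (median 75.7) in gp38+CD26+ and 19.8 to 58.8 CPM (median 40.5) in gp38+CD26- libraries, at least 1284-fold lower in mural cells. Capn6, a calpain without protease activity, stood at 4.77 to 41.9 CPM (median 24.1) in mural, 1925 to 3308 CPM (median 2257) in gp38+CD26+ and 802 to 1441 CPM (median 961) in gp38+CD26- libraries (difference -6.04 ± 0.42, adjusted p = 5.2e-09). Fbln2, an elastic fibre and basement membrane linker, stood at 0 to 13.4 CPM (median 2.04) in mural, 176 to 537 CPM (median 372) in gp38+CD26+ and 103.4 to 171.6 CPM (median 127.2) in gp38+CD26- libraries (difference -5.80 ± 0.76, adjusted p = 1.6e-05). Mfap5, a microfibril protein, stood at 0.381 to 63.2 CPM (median 4.04) in mural, 1335 to 3054 CPM (median 1967) in gp38+CD26+ and 81 to 225 CPM (median 152) in gp38+CD26- libraries (difference -5.38 ± 0.84, adjusted p = 0.0001). In each of these the mural libraries lay wholly below, which the rule of choice required, although 1 mural library reached 63.2 CPM of Mfap5. Besides the sort gene Pdpn, the other genes of this group were Cd55, which protects cells from complement (-5.98), the glucuronosyltransferase Ugt1a6a (-5.75), whose exons are in part shared by its whole gene cluster so that counts may be split among its members, Kera, a corneal-type proteoglycan (-5.52), the Polycomb-type gene Scml4 (-5.49), Igfbp6, an IGF-binding protein (-5.21), the hyaluronan synthase Has1 (-5.03) and the imprinted gene Magel2 (-5.01).

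**Figure D2:**
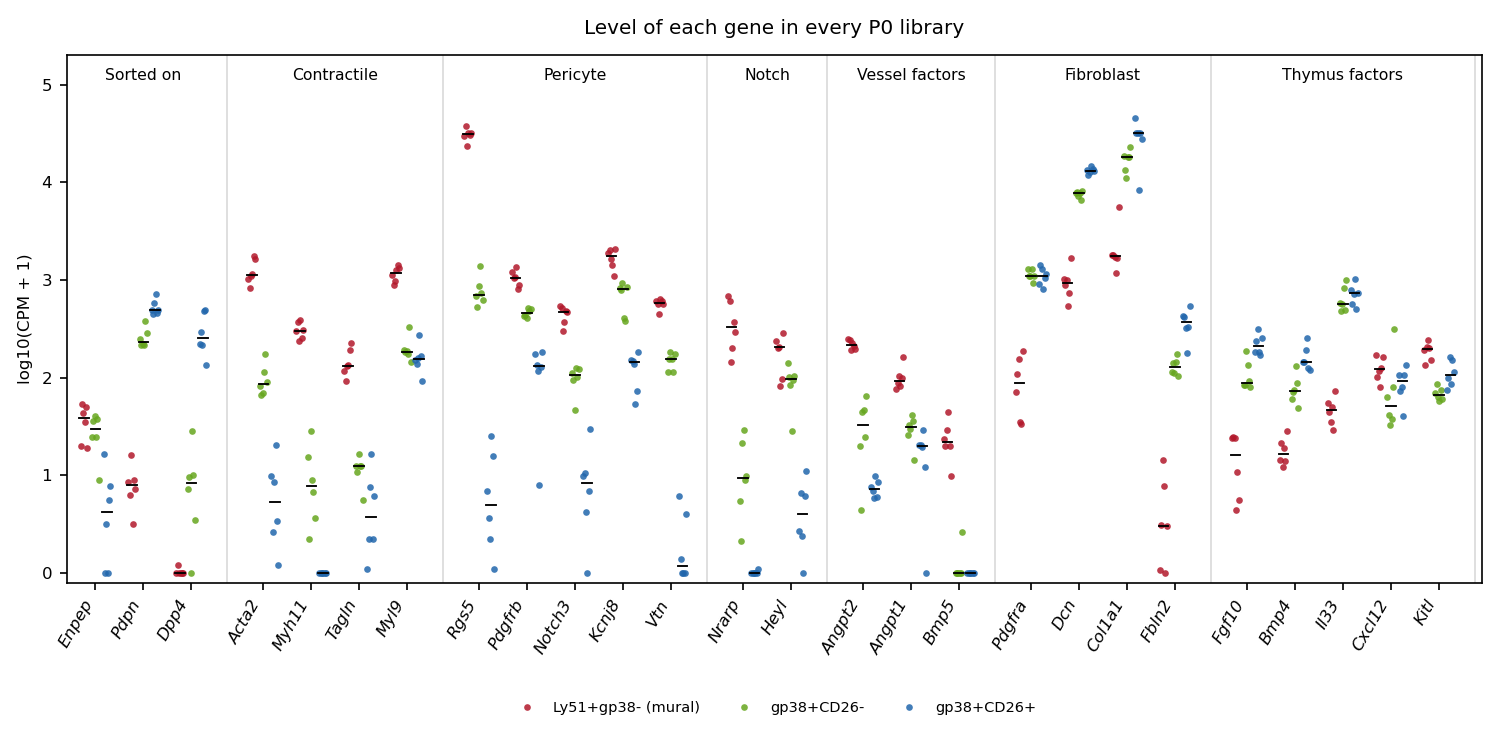
Points are single P0 libraries, 6 per population, with log10(CPM + 1) on the y axis and genes along the x axis; colours mark the 3 populations. For Rgs5 the mural libraries lie between 23473 and 37257 CPM, and gp38+CD26- libraries, at 522 to 1392 CPM, lie between them and the gp38+CD26+ libraries.

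Most of the contractile apparatus genes tested were higher in mural cells. Of 23 tested, 18 were higher and 0 lower, with a median difference of 2.25 against 0.00 over all genes and 5.64% of all genes called higher. The promoters of 4 of the 18 are shown because the group shares known regulators: serum response factor with myocardin binds the CArG box, which is CC and GG around 6 letters that are A or T, and TEAD factors bind CATTCC. All 4 hold a match and do not stand for the list. Acta2, Myl9 and Vcl were the only called members with a CArG box, 1 letter off allowed. The sequences are the 250 bases before the annotated start in RefSeq (GRCm38.p6), 5′ to 3′ on the strand of the gene, and capitals mark CArG boxes, those with at most 1 letter off in the middle included, and CATTCC on either strand.
Acta2 (smooth muscle α-actin), chr19:34255374-34255623, minus strand: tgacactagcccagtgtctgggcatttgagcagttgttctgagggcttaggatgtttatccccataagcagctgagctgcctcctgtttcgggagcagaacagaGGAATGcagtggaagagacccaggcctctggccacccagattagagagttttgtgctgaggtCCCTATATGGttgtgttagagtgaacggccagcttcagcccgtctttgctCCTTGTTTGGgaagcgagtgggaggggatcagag
Myl9 (myosin regulatory light chain), chr2:156775214-156775463, plus strand: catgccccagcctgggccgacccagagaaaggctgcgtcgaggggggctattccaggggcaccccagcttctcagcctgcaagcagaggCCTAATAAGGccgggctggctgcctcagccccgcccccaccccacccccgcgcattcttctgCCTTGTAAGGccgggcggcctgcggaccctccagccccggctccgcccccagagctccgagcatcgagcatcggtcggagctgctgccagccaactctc
Vcl (vinculin), chr14:20929148-20929397, plus strand: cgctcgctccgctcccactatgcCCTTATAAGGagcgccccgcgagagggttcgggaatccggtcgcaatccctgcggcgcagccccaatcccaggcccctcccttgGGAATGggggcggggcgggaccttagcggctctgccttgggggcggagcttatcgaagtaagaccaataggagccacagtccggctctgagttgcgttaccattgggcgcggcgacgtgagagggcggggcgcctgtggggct
Mylk (myosin light chain kinase), chr16:34784700-34784949, plus strand: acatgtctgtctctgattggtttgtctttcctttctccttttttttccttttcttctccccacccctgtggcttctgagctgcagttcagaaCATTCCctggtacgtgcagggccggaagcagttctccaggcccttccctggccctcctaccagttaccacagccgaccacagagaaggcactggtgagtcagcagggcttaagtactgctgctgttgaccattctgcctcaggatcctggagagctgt

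Myl9 held an exact CArG box, CCTAATAAGG, that ended 152 bases before its start, and Vcl held CCTTATAAGG, which ended at 218 bases. Acta2 held 2 boxes with 1 letter off, CCCTATATGG ending at 75 bases and CCTTGTTTGG ending at 25 bases, and Mylk held none but had CATTCC ending at 153 bases. Of 20 list members with a RefSeq promoter (5 of 25 had no match), 3 held an exact CArG box (Ldb3, Myl9 and Vcl) against 1.62% of all 27025 genes with a promoter in the table, and 0 of 19 collagen genes did. With 1 letter off allowed, 4 of the 20 held a box (20%) against 9.78% of all genes and 2 of 19 collagen genes. CATTCC lay in 9 of the 20 against 14.4% of all genes and 2 of 19 collagen genes. Both motifs were searched on both strands, and none of the printed matches overlapped. A match of letters is a description and says nothing of binding in these cells.

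Acta2 stood at 829.8 to 1764 CPM (median 1116) in mural, 0.189 to 19.2 CPM (median 4.9) in gp38+CD26+ and 65.4 to 172.4 CPM (median 85.2) in gp38+CD26- libraries (difference 5.62 ± 0.48, adjusted p = 6.6e-08). Mylk stood at 922 to 1476 CPM (median 1108) in mural, 20.4 to 46.4 CPM (median 32.5) in gp38+CD26+ and 180.3 to 348 CPM (median 219.9) in gp38+CD26- libraries (difference 3.67 ± 0.17, adjusted p = 3e-11). Myl9, whose product that kinase phosphorylates to start contraction, stood at 895 to 1406 CPM (median 1184) in mural, 92.2 to 274 CPM (median 154) in gp38+CD26+ and 142 to 329 CPM (median 183) in gp38+CD26- libraries (difference 2.69 ± 0.19, adjusted p = 4.9e-09). Vcl, which ties actin to the membrane, stood at 78.1 to 154.7 CPM (median 112.3) in mural, 6.06 to 36.8 CPM (median 21.1) in gp38+CD26+ and 31.5 to 54.7 CPM (median 38) in gp38+CD26- libraries (difference 1.93 ± 0.27, adjusted p = 3.8e-05). For all 4 the mural libraries were wholly above both fibroblast groups, and the gp38+CD26- medians lay above the gp38+CD26+ ones. Tagln, which encodes the actin-binding protein SM22α, followed at 91.2 to 224 CPM (median 131.7) in mural, 0.0987 to 15.4 CPM (median 3.17) in gp38+CD26+ and 4.62 to 15.5 CPM (median 11.4) in gp38+CD26- libraries (difference 4.34 ± 0.51, adjusted p = 4.3e-06). Tpm1 and Tpm2 (tropomyosins), Flna (filamin A), Des (desmin), Csrp1, Lmod1, Cnn1 (calponin), Actg2, Ppp1r14a and Ppp1r12b (regulators of myosin phosphatase) and Nrip2 were also called, between 1.41 and 8.10. The Des libraries of mural and gp38+CD26- cells overlapped. Cald1, Smtn, Synpo2, Itga8 and Vim were not called, at differences of 0.87, 0.30, 0.97, 0.91 and 0.12.

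Pericyte identity genes rose in 18 of 24 tested, with 0 lower and a median difference of 2.63. Kcnj8 and Abcc9 encode the pore and the sulfonylurea subunit of the vascular KATP channel. Kcnj8 stood at 1091 to 2058 CPM (median 1760) in mural, 52.7 to 182.1 CPM (median 142) in gp38+CD26+ and 380.1 to 923 CPM (median 803) in gp38+CD26- libraries (difference 2.52 ± 0.24, adjusted p = 2.2e-07). Abcc9 stood at 833 to 1328 CPM (median 1112) in mural, 159 to 337 CPM (median 241) in gp38+CD26+ and 563 to 861 CPM (median 667) in gp38+CD26- libraries (difference 1.39 ± 0.14, adjusted p = 6.8e-07). Both were also well expressed in gp38+CD26- fibroblasts. The Abcc9 libraries of mural and gp38+CD26- cells overlapped. Pdgfrb, the receptor through which endothelial PDGF-B recruits mural cells, stood at 814 to 1358 CPM (median 1056) in mural, 6.95 to 180.2 CPM (median 129) in gp38+CD26+ and 409.6 to 511 CPM (median 455) in gp38+CD26- libraries (difference 2.16 ± 0.34, adjusted p = 0.0001). Its mural libraries lay above all fibroblast libraries, yet the difference from gp38+CD26- cells alone, 1.21, was not called (adjusted p = 0.072). The spread behind this test was taken over all 3 groups, gp38+CD26+ replicate 4 at 6.95 CPM included. Without that library the difference from the mean of both groups was 2.04 (edgeR adjusted p = 1e-09). The difference from gp38+CD26- cells alone was not refitted, so the missing call does not show like levels.

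Others were far more restricted. Higd1b, a small mitochondrial protein gene, stood at 114 to 178 CPM (median 151.3) in mural, 0 to 2.12 CPM (median 0.705) in gp38+CD26+ and 9.86 to 20.8 CPM (median 11.2) in gp38+CD26- libraries (difference 5.41 ± 0.38, adjusted p = 5.2e-09). Art3, a member of the ADP-ribosyltransferase family, stood at 239 to 328 CPM (median 305) in mural, 0 to 3.26 CPM (median 0.573) in gp38+CD26+ and 3.7 to 28.8 CPM (median 18) in gp38+CD26- libraries (difference 6.33 ± 0.53, adjusted p = 4.9e-08). Vtn, the adhesive plasma protein vitronectin, was near 0 in gp38+CD26+ cells but not in gp38+CD26- cells, at 446 to 640.0 CPM (median 581) in mural, 0 to 5.13 CPM (median 0.187) in gp38+CD26+ and 112.3 to 181 CPM (median 153) in gp38+CD26- libraries (difference 5.29 ± 0.51, adjusted p = 3.6e-07). With few counts in gp38+CD26+ cells, the mean differences of Higd1b, Art3 and Vtn overstate the contrast with gp38+CD26- cells. Cox4i2, Ndufa4l2, Colec11, Steap4, Mcam, Cspg4 (NG2) and Foxs1 were also called higher. Tbx18, Cd248, Ebf1, P2ry14 and Anpep, which fibroblasts can also express, were not called.

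Receptors and enzymes that set vascular tone rose in 18 of 32 tested, with 1 lower and a median difference of 1.45. Gucy1a1, a subunit of soluble guanylate cyclase, the receptor of nitric oxide, stood at 1022 to 1560 CPM (median 1149) in mural, 14.6 to 75.3 CPM (median 24.2) in gp38+CD26+ and 145 to 427 CPM (median 202) in gp38+CD26- libraries (difference 3.75 ± 0.29, adjusted p = 1.9e-08). Its partner Gucy1b1 had a difference of 3.35. The endothelin receptor Ednra stood at 726 to 999 CPM (median 782) in mural, 65.7 to 201 CPM (median 126) in gp38+CD26+ and 268 to 423 CPM (median 348) in gp38+CD26- libraries (difference 1.94 ± 0.17, adjusted p = 9.7e-08). Ednrb stood at 259.5 to 512 CPM (median 320.3) in mural, 0 to 8.04 CPM (median 0) in gp38+CD26+ and 25.4 to 72.1 CPM (median 55.4) in gp38+CD26- libraries (difference 5.35 ± 0.67, adjusted p = 8.9e-06). All mural libraries exceeded all fibroblast libraries in these genes. Ednrb had a gp38+CD26+ median of 0, so its mean difference overstates the contrast with gp38+CD26- cells. The adrenergic receptors Adra1a, Adra1d, Adra2a and Adra2b, the angiotensin receptor Agtr1a, the vasopressin receptor Avpr1a, the phosphodiesterases Pde1a, Pde3a and Pde5a, the cGMP kinase substrate Mrvi1 and the purine receptor P2rx1 were called higher too. The prostaglandin receptor Ptger3 was the member that was lower (-3.25 ± 0.72), and the prostacyclin receptor Ptgir was not called (1.42).

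Among 26 ion channel and calcium-handling genes tested, 10 were higher and 2 lower, with a median difference of 1.24. Without gp38+CD26+ replicate 4 these were 13 and 1. Casq2, the calcium store protein calsequestrin, stood at 162.6 to 441 CPM (median 217) in mural, 4.34 to 19.1 CPM (median 14.5) in gp38+CD26+ and 26 to 87.8 CPM (median 38) in gp38+CD26- libraries (difference 3.38 ± 0.30, adjusted p = 1.2e-07). Kcna5, a voltage-gated potassium channel (3.89 ± 0.73), Ano1, a calcium-activated chloride channel (4.70 ± 0.59), and Trpc6, Itpr1, Atp2a3 and Atp2b4 were also higher. Kcnk3, a background potassium channel, had no count in gp38+CD26+ cells, and its range of 9.54 to 129 CPM (median 47.7) in mural cells overlapped 0 to 51.2 CPM (median 2.99) in gp38+CD26- cells, the top value being 1 library. The sodium channel Scn7a and the calcium release channel Itpr2 were lower. The L-type calcium channel Cacna1c was not called (1.75 ± 0.81), and Pln, the brake on the calcium pump, was close to 0 in all 3 groups.

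**Figure D3:**
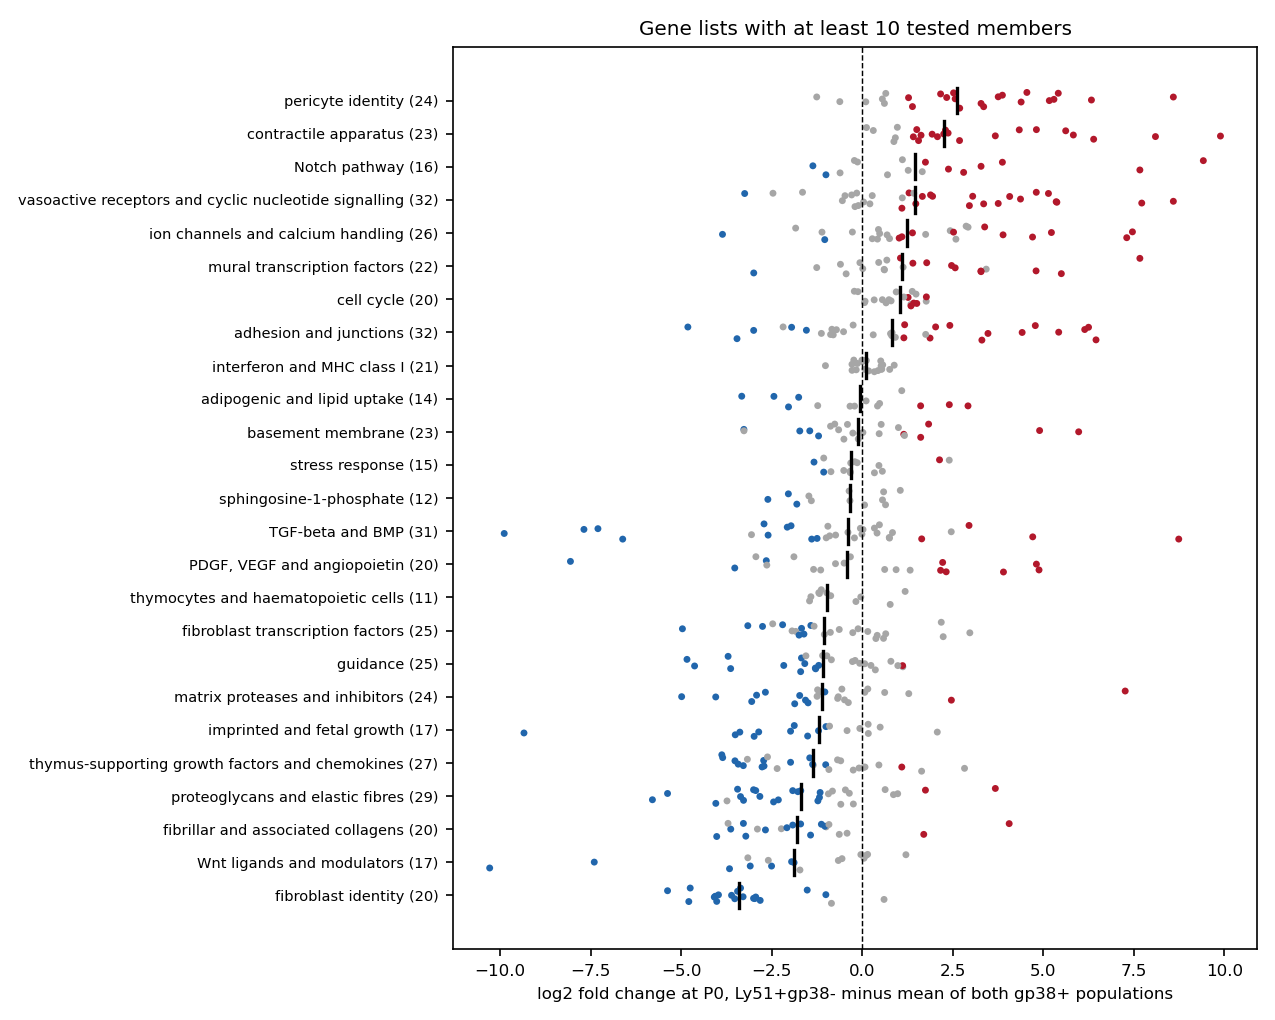
Each row is a gene list with at least 10 tested members (number in brackets), and each point is the log2 fold change of a member at P0 on the x axis, coloured where called; the bar marks the list's median. Contractile and pericyte members lie mainly to the right, with medians of 2.25 and 2.63, and fibroblast identity members to the left, with a median of -3.40.

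Notch pathway genes were higher more often than lower. Of 16 tested, 7 were higher and 2 lower, with a median difference of 1.46, and by DESeq2, RLE factors or library totals 8 were higher and 1 lower. The receptor Notch3 stood at 298 to 537 CPM (median 469.7) in mural, 0 to 28.4 CPM (median 7.42) in gp38+CD26+ and 45.6 to 124.5 CPM (median 104) in gp38+CD26- libraries (difference 3.87 ± 0.48, adjusted p = 7.2e-06). Its ligand Jag1, with which mural cells also signal to one another, stood at 139.7 to 343 CPM (median 292) in mural, 17 to 83 CPM (median 27.2) in gp38+CD26+ and 38.1 to 143.5 CPM (median 46.4) in gp38+CD26- libraries (difference 2.38 ± 0.33, adjusted p = 2.6e-05). The target Heyl stood at 80.1 to 284 CPM (median 203) in mural, 0 to 9.91 CPM (median 3.38) in gp38+CD26+ and 27.4 to 138 CPM (median 96.1) in gp38+CD26- libraries (difference 3.28 ± 0.48, adjusted p = 5.5e-05), overlapping the gp38+CD26- libraries, from which it did not differ by the rule (1.02). The targets Hey1 and Hey2 and the regulator Dtx3 rose as well, while Hes1 was not called (0.70). Notch2 (-1.36 ± 0.29) and Dlk1 (-1.0 ± 0.11), a membrane protein related to Notch ligands, were lower.

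Of 22 transcription factors of mural cells tested, 10 were higher and 1 lower, with a median difference of 1.09. Mef2c, a MADS-box factor of muscle, stood at 407 to 825 CPM (median 504) in mural, 14.9 to 65.4 CPM (median 38.3) in gp38+CD26+ and 36.7 to 204 CPM (median 85.9) in gp38+CD26- libraries (difference 3.28 ± 0.34, adjusted p = 7.9e-07). Epas1, the hypoxia-inducible factor HIF-2α, stood at 303 to 475 CPM (median 373) in mural, 0 to 7.4 CPM (median 1.54) in gp38+CD26+ and 37.8 to 85 CPM (median 64.5) in gp38+CD26- libraries (difference 4.80 ± 0.56, adjusted p = 3.8e-06). Myocd, the coactivator of serum response factor that drives smooth muscle genes, was low but restricted, at 21.9 to 69.4 CPM (median 30) in mural, 0 to 2.23 CPM (median 0) in gp38+CD26+ and 0 to 4.18 CPM (median 0) in gp38+CD26- libraries (difference 5.50 ± 1.14, adjusted p = 0.0016). In all 3 the mural libraries were wholly above the others. For Epas1 the gp38+CD26+ libraries were near 0, so its mean difference overstates the contrast with gp38+CD26- cells. For Myocd both fibroblast medians were 0, so the size of its difference depends on the small count added before logs. Klf4, which represses contractile genes when smooth muscle cells dedifferentiate, was the member that was lower, at 3.18 to 9.82 CPM (median 7.77) in mural, 43.4 to 204 CPM (median 102) in gp38+CD26+ and 10.9 to 66.2 CPM (median 26.3) in gp38+CD26- libraries (difference -3.0 ± 0.40, adjusted p = 1.9e-05). Srf itself was not called (1.13 ± 0.93), nor were Mrtfa and Mrtfb (0.45 and 0.68). Of 25 fibroblast transcription factors tested, 8 were lower and 0 higher, among them Osr1, Osr2, Tcf21, Twist2 and Meox1, while the Hox and Pax genes of the list were not called.

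Ligands and receptors of the PDGF, VEGF and angiopoietin families did not move one way: of 20 tested, 6 were higher and 3 lower, with a median difference of -0.41. The lower count depended on the tool, at 7 by DESeq2 and 5 by limma voom, each with 6 higher. Pdgfa stood at 76.4 to 139.1 CPM (median 109) in mural, 0.124 to 3.21 CPM (median 1.42) in gp38+CD26+ and 5.64 to 13.4 CPM (median 10.2) in gp38+CD26- libraries (difference 4.81 ± 0.33, adjusted p = 3.6e-09). Angpt2, which loosens the contact of endothelium and mural cells, stood at 192.1 to 244 CPM (median 215) in mural, 4.89 to 8.9 CPM (median 6.21) in gp38+CD26+ and 3.41 to 63.7 CPM (median 33.2) in gp38+CD26- libraries (difference 3.90 ± 0.34, adjusted p = 1e-07). Angpt1, its stabilising counterpart, stood at 75 to 162 CPM (median 92.3) in mural, 0 to 28.1 CPM (median 18.8) in gp38+CD26+ and 13.2 to 40.7 CPM (median 30.3) in gp38+CD26- libraries (difference 2.22 ± 0.49, adjusted p = 0.0027). The mural libraries were wholly above in all 3. Pdgfrl, a receptor-like gene, stood at 76.5 to 114 CPM (median 94) in mural, 3.87 to 23 CPM (median 8.54) in gp38+CD26+ and 18.4 to 48.9 CPM (median 38.7) in gp38+CD26- libraries (difference 2.32 ± 0.29, adjusted p = 9.3e-06). The receptor of fibroblasts, Pdgfra, went the other way at 32.6 to 186 CPM (median 89.2) in mural, 802 to 1412 CPM (median 1101) in gp38+CD26+ and 932 to 1297 CPM (median 1103) in gp38+CD26- libraries (difference -3.52 ± 0.35, adjusted p = 4.2e-07), as did the ligand Pdgfd (-2.65 ± 0.68). Vegfa was below 4 CPM in all 18 libraries and was not called (-0.74 ± 0.90).

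In the TGF-β and BMP list 4 of 31 tested genes were higher and 10 lower, with a median difference of -0.40. Bmp4 stood at 11.2 to 27 CPM (median 15.8) in mural, 117 to 253 CPM (median 143.2) in gp38+CD26+ and 47.8 to 130.5 CPM (median 72.3) in gp38+CD26- libraries (difference -2.71 ± 0.26, adjusted p = 3.6e-07), with mural libraries wholly below. Bmp5 took the opposite course at 8.73 to 43 CPM (median 20.9) in mural, no counts in gp38+CD26+ and 0 to 1.62 CPM (median 0) in gp38+CD26- libraries, a difference of 6.36 from gp38+CD26- cells. With a gp38+CD26- median of 0, the size of this Bmp5 difference depends on the added count. Id1, Id4 and Bmp2 were also higher. Tgfbr1, Tgfbr2, Tgfbr3, Gdf10, Bmp7, Chrdl1, Inhbb and Grem1 were among the lower ones, and the ligands Tgfb1, Tgfb2 and Tgfb3 were not called. Wnt ligands and modulators fell in 7 of 17 tested with 0 higher and a median difference of -1.88. The secreted inhibitor Sfrp1 stood at 62.8 to 190.4 CPM (median 72.8) in mural, 294 to 519 CPM (median 436) in gp38+CD26+ and 284 to 334 CPM (median 293) in gp38+CD26- libraries (difference -1.95 ± 0.22, adjusted p = 3.1e-06). Dkk2, another inhibitor, stood at 6.68 to 30.7 CPM (median 13.52) in mural, 109.6 to 611 CPM (median 153) in gp38+CD26+ and 44 to 159 CPM (median 68) in gp38+CD26- libraries (difference -3.09 ± 0.46, adjusted p = 6.5e-05). Both were wholly below in mural cells. Axin2, a common target of Wnt signalling, had a difference of 0.05 ± 0.61 and was not called.

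Adhesion and junction genes went both ways. Of 32 tested, 13 were higher and 5 lower, with a median difference of 0.82. Itga7, the α7 subunit of the laminin-binding integrin of muscle, stood at 519 to 680.3 CPM (median 612) in mural, 0 to 3.26 CPM (median 0.901) in gp38+CD26+ and 30.4 to 81.2 CPM (median 54.1) in gp38+CD26- libraries (difference 6.14 ± 0.43, adjusted p = 5.5e-09). Esam, an adhesion molecule shared by endothelium and mural cells, stood at 376 to 553 CPM (median 445) in mural, 0 to 10.5 CPM (median 0) in gp38+CD26+ and 5.65 to 23.2 CPM (median 13.3) in gp38+CD26- libraries (difference 6.46 ± 0.72, adjusted p = 2.3e-06). Cav1, the coat protein of caveolae, stood at 1192 to 1722 CPM (median 1267) in mural, 1.97 to 154 CPM (median 13.1) in gp38+CD26+ and 39.4 to 111.9 CPM (median 55.9) in gp38+CD26- libraries (difference 4.78 ± 0.58, adjusted p = 6.6e-06). These 3 were wholly above. The connexins were exchanged: Gja4 (connexin 37) stood at 288 to 465 CPM (median 374) in mural, 0 to 5.38 CPM (median 0.777) in gp38+CD26+ and 5.08 to 28 CPM (median 13.6) in gp38+CD26- libraries (difference 6.25 ± 0.54, adjusted p = 8.3e-08). Gja1 (connexin 43) stood at 0.0954 to 35.5 CPM (median 13.503) in mural, 545 to 928 CPM (median 673) in gp38+CD26+ and 149.9 to 449 CPM (median 249.8) in gp38+CD26- libraries (difference -4.82 ± 0.60, adjusted p = 8e-06). N-cadherin (Cdh2), Cdh6, Cdh13 and Gjc1 were higher, and the fibroblast cadherin Cdh11 (-3.0 ± 0.35), the fibronectin receptor subunit Itga5 (-1.54) and Vcam1 (-1.95) were lower. Guidance genes were lower more often than higher, 11 of 25 tested with 1 higher and a median of -1.10. Slit2, a repellent ligand of Robo receptors, stood at 35.2 to 72.2 CPM (median 49.9) in mural, 120.03 to 183 CPM (median 160.2) in gp38+CD26+ and 103.4 to 183.9 CPM (median 151.1) in gp38+CD26- libraries (difference -1.59 ± 0.17, adjusted p = 1.2e-06).

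Most matrix genes that were called were lower in mural cells. Fibroblast identity genes fell in 18 of 20 tested with a median of -3.40. Dcn (decorin) stood at 541 to 1660 CPM (median 940.4) in mural, 11730 to 14634 CPM (median 13176) in gp38+CD26+ and 6510 to 8172 CPM (median 7775) in gp38+CD26- libraries (difference -3.36 ± 0.19, adjusted p = 5.1e-10). Lum (lumican) stood at 155.7 to 583 CPM (median 321) in mural, 2892 to 5584 CPM (median 3552) in gp38+CD26+ and 2659 to 3965 CPM (median 3346) in gp38+CD26- libraries (difference -3.44 ± 0.24, adjusted p = 5.5e-09). Of 20 fibrillar and associated collagens tested, 11 were lower and 2 higher, with a median difference of -1.81. Against gp38+CD26- cells alone 11 were called lower and 0 higher. Col6a5, 1 of the 2 higher ones, had a lower median in mural than in gp38+CD26- cells. Col1a1 stood at 1188 to 5623 CPM (median 1749) in mural, 8297 to 45064 CPM (median 31939) in gp38+CD26+ and 11013 to 22856 CPM (median 18057) in gp38+CD26- libraries (difference -3.28 ± 0.37, adjusted p = 2.6e-06). The top mural value, 5623 CPM, was that of replicate 6, in which Sfrp1 was also high for the group at 190 CPM. Without that library 712 genes were higher and 734 lower. Proteoglycans and elastic fibre genes were lower in 17 of 29 tested and higher in 2, with a median of -1.70, the higher ones being Fmod (3.67 ± 0.88) and Aspn. Aspn (asporin) stood at 1877 to 2422 CPM (median 2180) in mural, 556 to 1222 CPM (median 814) in gp38+CD26+ and 320.3 to 859 CPM (median 459) in gp38+CD26- libraries (difference 1.74 ± 0.18, adjusted p = 8.7e-07).

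The basement membrane list was mixed, with 5 of 23 tested higher and 4 lower and a median of -0.11. Col4a1, a chain of collagen IV, stood at 841 to 2028 CPM (median 1429) in mural, 279.6 to 595 CPM (median 386) in gp38+CD26+ and 657 to 1369 CPM (median 910.0) in gp38+CD26- libraries (difference 1.15 ± 0.21, adjusted p = 0.00049), overlapping gp38+CD26- cells. Lama5 (laminin α5) stood at 21.1 to 39 CPM (median 28.2) in mural, 0 to 5.63 CPM (median 0) in gp38+CD26+ and 0 to 3.7 CPM (median 0.119) in gp38+CD26- libraries (difference 4.90 ± 1.18, adjusted p = 0.0058). With both fibroblast medians at or near 0, the size of the Lama5 difference depends on the small count added before logs. Col15a1 (-3.27 ± 0.33), Nid2, Lama2 and Hspg2 were lower. Among matrix proteases and inhibitors 10 of 24 were lower and 2 higher, with a median of -1.11. Mmp2 (gelatinase A) stood at 119.8 to 218 CPM (median 149.3) in mural, 1227 to 2070 CPM (median 1715) in gp38+CD26+ and 724 to 1418 CPM (median 1098) in gp38+CD26- libraries (difference -3.05 ± 0.20, adjusted p = 3e-09). Timp3, a matrix-bound protease inhibitor, stood at 3443 to 8271 CPM (median 3694) in mural, 83.8 to 359 CPM (median 312) in gp38+CD26+ and 1524 to 3806 CPM (median 1911) in gp38+CD26- libraries (difference 2.46 ± 0.25, adjusted p = 8.2e-07). Its difference was carried by the gp38+CD26+ reference (3.95, against 0.97 for gp38+CD26-, not called). Without gp38+CD26+ replicate 4 it was 2.37.

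Factors by which thymic stroma supports epithelium and progenitors were lower in mural cells more often than higher. Of 27 tested, 12 were lower in mural cells and 1 higher, with a median difference of -1.37. Fgf10, the FGFR2 ligand needed for growth of thymic epithelium, stood at 3.43 to 23.6 CPM (median 16.3) in mural, 169 to 314 CPM (median 209) in gp38+CD26+ and 78.3 to 188 CPM (median 87.9) in gp38+CD26- libraries (difference -3.43 ± 0.41, adjusted p = 5.6e-06). Its relative Fgf7 stood at 0 to 12 CPM (median 6.33) in mural, 72.1 to 148.5 CPM (median 99.6) in gp38+CD26+ and 32.8 to 55.3 CPM (median 49) in gp38+CD26- libraries (difference -3.52 ± 0.59, adjusted p = 0.00022). The alarmin Il33 stood at 28.1 to 72 CPM (median 46.1) in mural, 499 to 1025 CPM (median 724) in gp38+CD26+ and 475 to 998 CPM (median 571) in gp38+CD26- libraries (difference -3.88 ± 0.25, adjusted p = 2.4e-09). Igf1 stood at 47.4 to 123 CPM (median 64.5) in mural, 514 to 2067 CPM (median 788) in gp38+CD26+ and 386 to 648 CPM (median 397) in gp38+CD26- libraries (difference -3.29 ± 0.31, adjusted p = 2.1e-07). The mural libraries were wholly below in each. Kitl, the stem cell factor that early thymocyte progenitors need, was the member that was higher, at 133.97 to 239.6 CPM (median 197) in mural, 74 to 162 CPM (median 106) in gp38+CD26+ and 56.8 to 84.4 CPM (median 64.9) in gp38+CD26- libraries (difference 1.09 ± 0.17, adjusted p = 7.5e-05), overlapping the gp38+CD26+ libraries. Cxcl12, the ligand of CXCR4 on incoming progenitors, stood at 79.2 to 170 CPM (median 120.1) in mural, 39.8 to 133 CPM (median 91.3) in gp38+CD26+ and 31.7 to 309 CPM (median 51) in gp38+CD26- libraries and was not called (0.46 ± 0.40, adjusted p = 0.54). Il7 was tested and not called, at 0.04 ± 1.20.

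Sphingosine-1-phosphate guides the exit of mature thymocytes at the perivascular space. Of 12 genes of its metabolism, transport and receptors tested, 3 were lower and 0 higher. The kinase Sphk1 stood at 7.66 to 21 CPM (median 13.6) in mural, 32.3 to 112.9 CPM (median 80.3) in gp38+CD26+ and 78.5 to 126.9 CPM (median 93.6) in gp38+CD26- libraries (difference -2.61 ± 0.27, adjusted p = 9.9e-07). The phosphatase Plpp3 stood at 76.1 to 121.7 CPM (median 97.7) in mural, 448 to 647 CPM (median 573) in gp38+CD26+ and 244 to 355 CPM (median 272) in gp38+CD26- libraries (difference -2.04 ± 0.13, adjusted p = 1.8e-09). Both lay wholly below. S1pr3 stood at 777 to 1587 CPM (median 990.2) in mural, 133 to 929 CPM (median 504) in gp38+CD26+ and 589 to 1597 CPM (median 1102) in gp38+CD26- libraries and was not called (0.56 ± 0.30). Spns2, the exporter, was not called (-1.48 ± 1.6).

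Imprinted and fetal growth genes were lower in 10 of 17 tested, with 0 higher and a median difference of -1.21. H19 stood at 229.5 to 406 CPM (median 339) in mural, 2111 to 2728 CPM (median 2382) in gp38+CD26+ and 2183 to 2655 CPM (median 2453) in gp38+CD26- libraries (difference -2.86 ± 0.12, adjusted p = 1.3e-11). Mest stood at 238 to 449 CPM (median 396) in mural, 2996 to 6114 CPM (median 4587) in gp38+CD26+ and 2841 to 4436 CPM (median 3178) in gp38+CD26- libraries (difference -3.38 ± 0.18, adjusted p = 2e-10). Igf2, which shares its locus with H19, stood at 94.4 to 228 CPM (median 155.8) in mural, 572 to 914 CPM (median 767) in gp38+CD26+ and 313 to 741 CPM (median 538) in gp38+CD26- libraries (difference -1.98 ± 0.21, adjusted p = 1.2e-06). Plagl1, a zinc finger gene of the imprinted network, stood at 6.87 to 30.1 CPM (median 13.1) in mural, 159.6 to 263 CPM (median 224) in gp38+CD26+ and 77.6 to 162.6 CPM (median 133) in gp38+CD26- libraries (difference -3.51 ± 0.30, adjusted p = 7.1e-08). In all 4 the groups did not overlap, which their choice by the smallest p of a list favoured. Over all genes tested 2.92% lay wholly below. Peg3, Grb10, Cdkn1c, Ndn, Dlk1 and Zim1 were the other called members, and Meg3 and Igf2r were not called (-0.90 and 0.16).

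Cell cycle genes were higher in 5 of 20 tested, with 0 lower and a median of 1.04. The higher count was 8 without gp38+CD26+ replicate 4, 8 by DESeq2, 8 with library totals alone and 9 by limma voom. Ccnb1 (cyclin B1) stood at 115.5 to 231 CPM (median 164.5) in mural, 26.6 to 62.8 CPM (median 45.1) in gp38+CD26+ and 70.3 to 123.6 CPM (median 74.9) in gp38+CD26- libraries (difference 1.51 ± 0.19, adjusted p = 7.3e-06). Ccnb2 stood at 156.04 to 254 CPM (median 197) in mural, 59.1 to 97.3 CPM (median 85.7) in gp38+CD26+ and 58.1 to 102.9 CPM (median 78.5) in gp38+CD26- libraries (difference 1.34 ± 0.14, adjusted p = 9.8e-07). Plk1, Ccna2 and Ube2c were the others, and Mki67 was not called (1.48 ± 0.94). Of 15 stress response genes, which digestion and sorting can induce, 1 was higher and 2 lower: Hspa1a (2.13 ± 0.60), which has a near-identical copy in Hspa1b so that its counts are uncertain, Ier2 (-1.33 ± 0.24) and Zfp36 (-1.07 ± 0.29). Over all genes 5.64% were called higher and 5.77% lower, so these few calls do not set the stress list apart. The part of stress genes in the other results was not tested. Of 21 interferon and MHC class I genes tested, edgeR called 0 in either direction, with 3 higher and 1 lower at an unadjusted p under 0.05 and 0 called by DESeq2 or limma voom. In the other lists described above where edgeR called 0 genes in a direction, the contractile, Wnt and cell cycle lists also had 0 in that direction at an unadjusted p under 0.05 and by DESeq2 and limma voom. At that unadjusted p, 2 pericyte genes were lower, and 1 fibroblast identity gene, 2 fibroblast transcription factors and 1 sphingosine-1-phosphate gene were higher, with 0 by the other tools. For the imprinted list it was 0, with 0 by DESeq2 and 1 by limma voom.

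The adipogenic list split into 3 higher and 4 lower of 14 tested, and 5 and 5 of 15 without gp38+CD26+ replicate 4. Fabp4, a fatty acid carrier, stood at 16 to 83.7 CPM (median 41.1) in mural, 6.52 to 16.1 CPM (median 12.54) in gp38+CD26+ and 3.23 to 11.4 CPM (median 4.45) in gp38+CD26- libraries (difference 2.40 ± 0.34, adjusted p = 3.8e-05). Pparg and Cd36 were also higher, each overlapping a fibroblast group, whereas Lpl, Apod, Apoe and Gpc3 were lower. Adipoq (adiponectin) was not tested because too few libraries had counts. Its 6 mural libraries ranged over 0 to 52.3 CPM (median 14.5), against no count in 12 fibroblast libraries, at least 847-fold higher, or at least 578-fold without mural replicate 3, which held the most. Gpd1, an enzyme of glycerol synthesis, was likewise not tested and had no count in mural replicates 4 and 6. It stood at 0 to 109.7 CPM (median 44) in mural libraries with no count in fibroblasts. From pooled counts it was at least 2146-fold higher, or at least 1632-fold without mural replicate 3.

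The 2 fibroblast populations were not equal as references. Between them 403 genes were called (3.09% of those tested), 142 higher in gp38+CD26+ and 261 higher in gp38+CD26- cells. Against gp38+CD26+ cells 875 genes were higher in mural cells (6.7%) and 911 lower (6.98%). Against gp38+CD26- cells 367 were higher (2.81%) and 578 lower (4.43%). Both comparisons use the same mural libraries, so their values are set side by side only. The median difference of the contractile list was 2.48 against gp38+CD26+ and 1.80 against gp38+CD26- cells, with 19 and 13 genes called higher. For pericyte genes it was 3.56 and 1.80, also with 19 and 13. For the Notch list it was 2.34 and 0.65, with 9 and 4 called higher. For fibroblast identity it was -3.93 and -2.50, with 17 and 15 called lower.

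At 4 weeks, in libraries that share none with P0, 1139 of 13015 genes tested were higher in mural cells (8.75%) and 1204 lower (9.25%). One of those libraries, labelled gp38+CD26+ W4 replicate 2, held 25702 gene counts, and its fibroblast identity genes summed to 3463 CPM of the library total with thymic epithelial genes at 43190 CPM, against at most 246.9 CPM of the latter in the other 5 of its group. Of the 736 genes higher at P0, 690 were tested at W4, 623 went the same way and 457 (66.2%) were called in the same direction, against 8.75% of all genes. Of the 753 lower at P0, 709 were tested, 643 went the same way and 416 (58.7%) were called lower, against 9.25%. Without the shallow library the shares were 66.8% of 699 and 61.5% of 715, and 1227 genes were higher and 1384 lower at W4.

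The difference itself changed between P0 and W4, by the interaction term of a fit over all 36 libraries, in 625 of 14602 genes (4.28%). Without the shallow library the number was 830 of 14989. Among contractile genes the W4 median was 3.44, with 23 of 24 higher, against 8.75% of all genes at W4. The change itself was called in only 4 of 24, each with a lower difference at P0. Acta2 (-0.88), Tagln (-0.23), Vcl (-0.26) and Myh11 (1.92) were among those whose change was not called. Myl9 was 2625 to 3918 CPM (median 3221) in W4 mural cells and 81.7 to 236 CPM (median 148.5) in W4 gp38+CD26- cells, and its difference was smaller at P0 by 2.19 on the log2 scale (adjusted p = 1.1e-05). Casq2 rose to 374 to 560.2 CPM (median 456) in W4 mural cells and was listed at 0 in all gp38+CD26+ libraries, with 0 to 4.14 CPM (median 0.954) in gp38+CD26- ones. Pln, near 0 everywhere at P0, stood at 72.4 to 181 CPM (median 142) in W4 mural cells and 0 to 2.56 CPM (median 0.284) in gp38+CD26- cells (change -11.60, adjusted p = 0.00013). Casq2 and Pln had no count in W4 gp38+CD26+ cells, so that the size of their changes depends on the added count. Mef2c went from a difference of 3.28 at P0 to 6.04 at W4 (adjusted p of the change = 0.0017).

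Other genes had a smaller or an opposite difference at W4. Pdgfrl, higher in mural cells at P0, was lower at W4 (-2.24), with 8.56 to 30.3 CPM (median 21.8) in mural and 82.6 to 233 CPM (median 181.6) in gp38+CD26- cells (change 4.58, adjusted p = 1.1e-06). Igf2, lower at P0, was at 18.8 to 37.7 CPM (median 25) in W4 mural and 3.95 to 9.59 CPM (median 7.16) in W4 gp38+CD26- cells, while W4 gp38+CD26+ cells, at 0 to 40.6 CPM (median 17.9), overlapped the mural ones. Its W4 difference of 1.06 was 0.99 without the shallow library, under the fold minimum, and the change was -2.99 (adjusted p = 1.1e-06). Capn6 stood at 2.83 to 28.7 CPM (median 9.43) in W4 gp38+CD26- and 0 to 251 CPM (median 142) in W4 gp38+CD26+ cells, against 0 to 18.1 CPM (median 2.49) in mural cells, and its change was -3.32 (adjusted p = 0.026). The cyclins Ccnb1 and Ccnb2 had changes of 2.41 and 2.13 (adjusted p = 0.04 and 0.026), being higher in mural cells at P0 and not called at W4. The largest changes of the interaction, taken by size, included genes near 0 at an age, where the size of a change depends on the added count: Sla, a signalling adaptor, had no count in P0 mural cells and 5.91 to 45.4 CPM (median 19) at W4, while Gpd1, Cgnl1 and 9330159F19Rik had the opposite sign (12, 10.29 and 10.86). Genes of other cells differed between the groups at W4. As CPM of the library total, thymic epithelial genes summed to 631 to 3182 CPM (median 1019) and thymocyte and haematopoietic genes to 118 to 535 CPM (median 332) in mural libraries, against medians of 218.5 and 54 in gp38+CD26+ and 65 and 8.84 in gp38+CD26- libraries. The shallow gp38+CD26+ library decided how many of these were called. Of 10 epithelial genes tested at W4 edgeR called 0 with it, with 1 higher at an unadjusted p under 0.05 and 0 called by DESeq2, but 7 higher and 0 lower without it, with 0 lower at that unadjusted p. Of 13 thymocyte and haematopoietic genes 4 were called higher and 1 lower with it, and 8 and 1 without it. Endothelial genes had medians of 142.1 in mural, 218.2 in gp38+CD26+ and 228.5 in gp38+CD26- libraries, and 6 of 11 tested were called higher in mural cells and 1 lower, or 4 and 1 without the shallow library. Erythroid genes had medians of 219.3 in mural, 1865 in gp38+CD26+ and 2455 in gp38+CD26- libraries, and 6 of 7 were called lower in mural cells. Mesothelial genes had medians of 9.11, 3794 and 11.6 in that order, and again 6 of 7 were lower. Cells were sorted as CD45-, which should remove leukocytes. The study defines nonepithelial stroma as Ter119-CD45-EpCAM-, with CD31+ cells as a separate sorted population. Such gates should also remove erythroid, epithelial and endothelial cells. The part of other cells in the changes was not tested.

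**Figure D4:**
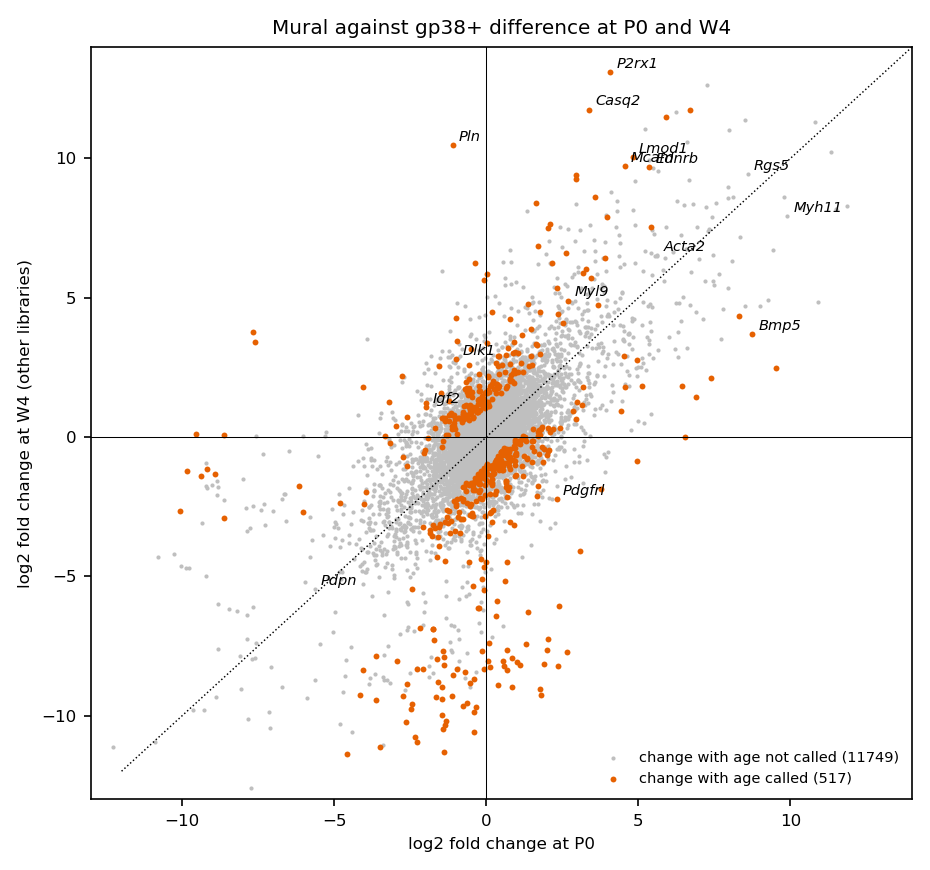
Each point is a gene tested at both ages, with the log2 fold change of mural minus mean fibroblast at P0 on the x axis and at W4, from other libraries, on the y axis; genes whose difference changed by the interaction test are coloured. Casq2 and Pln, without a count in W4 gp38+CD26+ cells, lie far above the diagonal, at 3.38 and -1.11 on the x axis and 11.75 and 10.48 on the y axis.

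The single-cell libraries of P0 separate what the gate joins. They hold 4690 and 5713 cells with the submitters' cell types, and 7 cell barcodes occur in both libraries. The submitters had kept the cells that DoubletFinder called singlets, and no further doublet call was made. Pericytes (Pc) number 436 and 860 cells and vascular smooth muscle cells (VSM) 449 and 618, and counts were summed by type and library and scaled to CPM, with no test over 2 libraries. The capsular (CapFb) and medullary (MedFb) fibroblast types were pooled by name. Of the 736 genes higher in the bulk mural cells, 717 were in the single-cell table. In 520 of these (72.5%) both Pc and VSM were above both fibroblast classes in both libraries, against 19.1% of all 12111 tested genes in that table, and in 675 (94.1%, against 41.8%) at least 1 type was. Of the 753 lower genes, 735 were present. Both types were below both fibroblast classes in 559 (76.1%, against 21%) and at least 1 in 675 (91.8%, against 42.7%).

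A minority of the genes that rose in bulk differed between the 2 mural types. By a ratio over 2 in both libraries, 79 of the 717 (11%, against 5.21% of all genes) were higher in Pc, 159 (22.2%, against 4.7%) were higher in VSM, and 479 were neither. The cell types rest on expression in such cells: the study identified Pc by Kcnj8 and VSM by contractile genes, Acta2, Tpm1 and Myh11 among them. The order of these genes between the 2 types thus follows from the labels and is no separate result. The KATP pair was higher in pericytes, with Kcnj8 at 1053 and 1230 CPM in Pc, 90.8 and 143.1 in VSM and 372 and 460.2 in MedFb of the 2 libraries, and Abcc9 at 468 and 526 in Pc and 57.4 and 71.3 in VSM. Higd1b (437 and 430.2 in Pc, 122.3 and 176 in VSM), Vtn (640.1 and 744 and 158.3 and 281) and Art3 (147 and 148.03 and 32.6 and 60.3) had the same order. Several of the largest bulk changes were higher in VSM: Rergl stood at 1.11 and 0.632 in Pc and 67.3 and 123 in VSM, Gja5 at 0.555 and 0.158 and 41.7 and 69.6, and Myh11 at 324 and 188 and 1700 and 2266. Acta2 was highest in VSM, at 10919 and 8623, with 3202 and 1470 in Pc. The endothelial types (EnA, EnC and EnVL pooled, with Cdh5 at 723 and 720), which should lack it, had 123.6 and 159.5, MedFb 157.9 and 132.5 and CapFb 234 and 87.9. The part of free RNA in these levels was not tested. Rgs5 (3209 and 3214 in Pc and 4189 and 6542 in VSM), Notch3 (397 and 409 and 362 and 485) and Itga7 (166.8 and 167.8 and 162 and 245) differed by a ratio of about 2 or less between the types. In endothelial cells Rgs5 stood at 73.9 and 199.6, Notch3 at 7.49 and 27.7 and Itga7 at 2.04 and 8.01, and in MedFb and CapFb Rgs5 stood at 241 and 253 and 127.1 and 52.7.

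Some of these genes were also counted in medullary fibroblasts. Emcn stood at 74.1 and 88.2 in Pc, 7.12 and 9.44 in VSM and 51.6 and 52.8 in MedFb, and Kcnj8 and Abcc9 were higher in MedFb than in VSM in both libraries. Fabp7 stood at 74.1 and 66.8 in Pc and 40 and 63.2 in VSM against 2.81 and 5.18 in MedFb. Adipoq, seen in 5 of 6 bulk mural libraries, was at 0 and 0.474 in Pc, 0.593 and 0.505 in VSM and 1.06 and 13.3 in CapFb, and Gpd1 at 0 and 1.26 in Pc and 0.593 and 0.674 in VSM, values close to 0 in both types. The bulk and single-cell assays differ in chemistry, since the single-cell kit counts 3′ ends and the bulk counts grow with gene length, and levels are compared only within an assay.

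**Figure D5:**
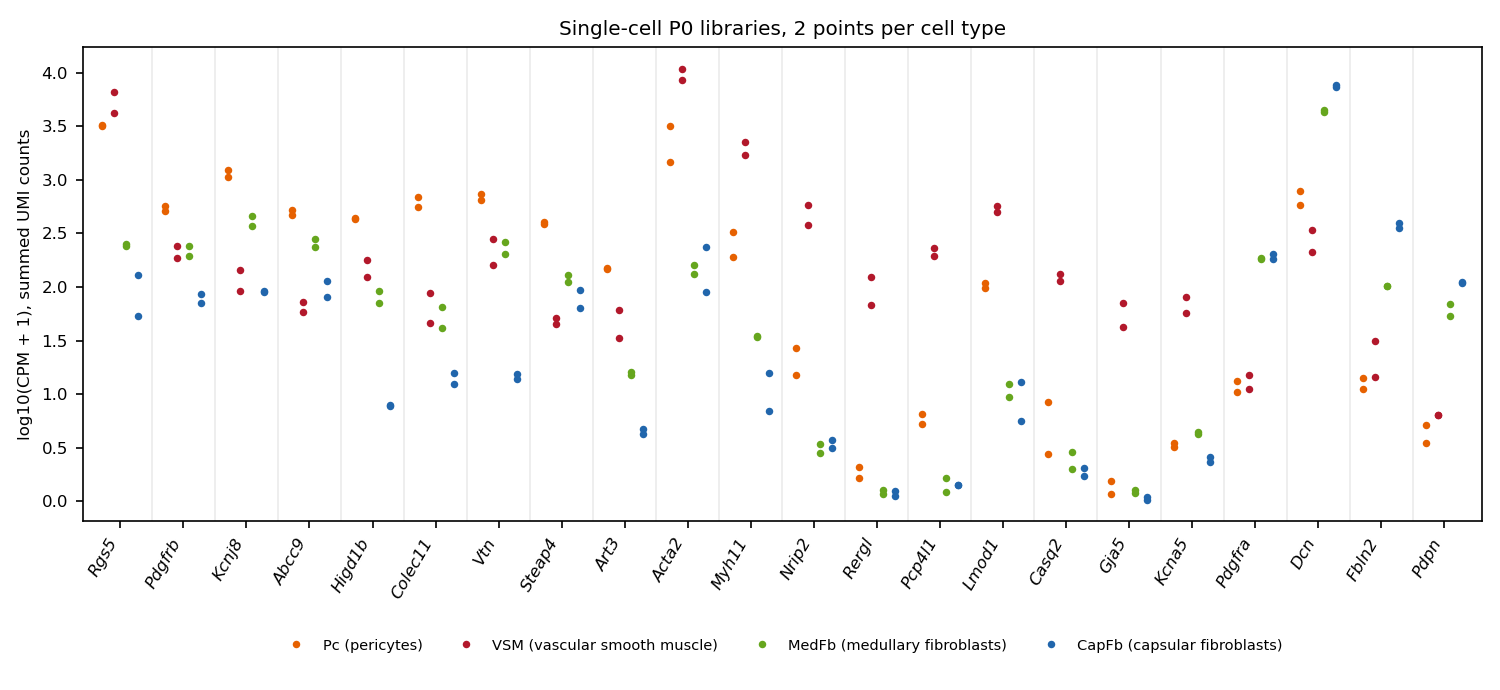
Points are the 2 single-cell P0 libraries for each of Pc, VSM, MedFb and CapFb, with log10(CPM + 1) of summed UMI counts on the y axis and genes along the x axis. Kcnj8 and Abcc9 are highest in Pc and Myh11, Rergl and Gja5 in VSM, with the values given in the text. The study identified Pc by Kcnj8 and VSM by genes that include Myh11, so the order of Kcnj8 and Myh11 follows from the labels.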

How the data were processed

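Bulk RNA-seq libraries were made from sorted stromal cells of wild-type newborn (P0) and 4-week-old (W4) thymi. The authors deposited a table of raw counts per Ensembl gene, with 39179 entries, 37607 of which have a symbol and 0.184% of P0 counts fall in the rest. The submitters' processing notes name STAR 2.5.3a, HTSeq and Cell Ranger 3.1.0 with the builds mm10 and GRCh38. The strand setting and annotation release are not given in the sources used here, so reads of overlapping and antisense genes cannot be told apart. Reads in no gene, 9.36% to 16.6% at P0, were left out of library sizes.

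Genes were filtered with filterByExpr, scaled by TMM and fitted with glmQLFit and glmQLFTest in edgeR 4.0.16 (R 4.3.3) over the 18 P0 libraries, 3 groups and no covariate, with adjusted p-values by Benjamini and Hochberg over all genes tested. The contrast was mural cells minus the mean of the 2 fibroblast groups. W4 was fitted in the same way, and the change with age as an interaction over 36 libraries. The fits were tested on simulated data first. DESeq2 1.42.0 and limma 3.58.1 (voom) were alternatives, as were other scaling, filters, references, each prefix of the sample names alone (TXCK and DFCK, 3 libraries each per group, meaning not stated) and leaving out each library. P0 libraries held 8454267 to 15852166 gene counts, so that a level of 1 CPM rests on few counts. A fold against a group with no counts was taken against a floor of 3 counts over the group. Single-cell counts at P0, deposited as UMI counts with the authors' cell types, were summed by type and library. Promoters were taken from RefSeq (GRCm38.p6).

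The named genes were, in each direction, the 12 called genes with the largest change, at least 20 CPM in the higher group and no overlap, plus the genes of the sort, up to 4 genes with the smallest p from each of 31 lists, members whose role a sentence needs, and for age the 3 largest changes in each direction. Names in a list's called or uncalled members, and Adipoq and Gpd1, were added after their values were seen. The members and lists were chosen with earlier results of these data known. Some genes that the rule named are not reported here.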

Additional observations from a re-analysis of the deposited data

Results flagged for a closer look

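Each gene described with library values was checked in each group of 6 P0 libraries with a mean of at least 10 CPM, on the log2(CPM + 1) scale. In 18 groups (9.73%) 1 library lay far from the other 5 by Dixon's test at its 95% critical value, which chance alone gives in about 1 of 20 groups. In mural cells these were replicate 3 for Vtn (446.5 CPM), replicate 4 for Gucy1a1 (1560 CPM), Cav1 (1722 CPM), Timp3 (8271 CPM) and Mest (238 CPM), and replicate 6 for Ednra (999.1 CPM), Sfrp1 (190.4 CPM) and Col1a1 (5623 CPM). In gp38+CD26+ cells they were replicate 4 for Pdgfrb (6.95 CPM), Col1a1 (8297 CPM) and Timp3 (83.8 CPM), and replicate 6 for Angpt1 (0 CPM). In gp38+CD26- cells they were replicate 3 for Higd1b (20.8 CPM), Notch3 (45.6 CPM) and Sfrp1 (334 CPM), replicate 4 for Heyl (27.4 CPM), replicate 5 for Myl9 (329 CPM) and replicate 6 for Enpep (7.93 CPM). Mural replicates 4 and 6, gp38+CD26+ replicate 4 and gp38+CD26- replicate 3 each appear for 3 or more genes.

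At W4 the library gp38+CD26+ replicate 2 stood apart in depth, with 25702 gene counts, 4343 genes detected and 29.4% of reads in no gene.

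The mural difference changed between P0 and W4, by the edgeR interaction test, in 20 of the 78 genes described with library values, and all 20 were called in the same direction without that shallow library. A negative change means that the difference was lower at P0. Of contractile, pericyte and tone genes it was -2.19 for Myl9, -1.06 for Mylk, -2.12 for Higd1b, -1.56 for Kcnj8, -4.34 for Ednrb, -8.39 for Casq2 and -11.60 for Pln. Of regulators and ligands it was -2.74 for Mef2c, -2.49 for Angpt2, 4.58 for Pdgfrl and 5.02 for Bmp5. Of imprinted and growth genes it was -2.99 for Igf2 and -3.76 for Dlk1. The cyclins Ccnb1 and Ccnb2 had changes of 2.41 and 2.13. The sphingosine-1-phosphate genes Sphk1 and Plpp3 changed by -1.56 and -1.44, and Capn6 by -3.32. The sort gene Dpp4 changed by -7.38 and Gpd1 by 12. Casq2, Ednrb and Pln had no count in W4 gp38+CD26+ cells, Bmp5 none in P0 gp38+CD26+ cells and Gpd1 none in P0 fibroblasts, and Dpp4 was near 0 in P0 mural cells, so that the size of these 6 changes depends on the added count.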

How the results depend on the processing

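The P0 counts of 736 higher and 753 lower genes stayed within 1.5 times under DESeq2 (830 and 881), RLE factors (780 and 729), no filter on low counts (1045 and 720 of 20936 tested) and the prefix of the sample names as a term (765 and 751). With library totals alone they were 853 and 665, and the median of all genes moved to 0.11. They moved further in these cases: 354 and 296 with the DFCK libraries alone (652 and 577 with TXCK), 367 higher against gp38+CD26- cells alone, 1246 higher with all 36 P0 libraries in the fit (16990 genes tested), 1142 higher by limma voom, 1135 lower with no fold minimum, and 430 and 404 with a log2 difference over 2. Leaving out each library in turn gave 672 to 844 higher and 710 to 819 lower genes, the most without gp38+CD26+ replicate 4. At W4 DESeq2 called 1246 and 1282. The change with age was called in 971 genes by DESeq2, against 625. Genes differing between the fibroblast populations numbered 636 by DESeq2 and 609 with no fold minimum, against 403, by alternatives chosen after seeing the data, and 365 without gp38+CD26+ replicate 4. The cause of these moves was not tested. With the replicate block 775 genes were higher and 748 lower. The labels do not pair the replicates, although like-numbered ones also share the prefix and the place in the order of library numbers. The deviations of 18 pairs of like-numbered libraries correlated at -0.0202 to 0.0614 (median 0.0427, against -0.0116 for other pairs), with 0 over 0.1, and 12 of 18 libraries correlated best with their own number. Each library had far more partners of other numbers than of its own, so shared material cannot be set aside. The main fit took no pairing into account. Other list counts of 1 or 2 genes moved by 1 gene: limma voom called 2 lower tone genes and 2 higher each of guidance and thymus-supporting genes, library totals gave 1 lower stress gene and 1 lower ion channel gene, and without gp38+CD26+ replicate 4 there were 1 lower interferon gene, 1 lower glial gene (1 by DESeq2 too) and 2 higher endothelial genes (2 by DESeq2 too). Of 1903 values of 159 named genes under the settings other than leaving out a library, 1807 kept direction and side of the threshold, 68 lost the call, 17 gained it and 10 changed sign without a call on either side. Tek turned from -1.35 (not called, adjusted p = 0.52) to 3.69 (called) with TXCK libraries alone. Of 2859 values with a library left out, 17 lost the call and 10 gained it. Depth limits what can be said of genes at a few CPM, as Tek was in mural cells (0 to 12.7 CPM).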

Other observations

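The adipocyte genes Adipoq and Gpd1 did not spread evenly over the mural libraries. The adipogenic list went both ways at P0, with 3 of 14 tested genes higher in mural cells and 4, Lpl among them, lower. Adiponectin (Adipoq) stood at 26.2, 11.5, 52.3, 0, 17.4 and 2 CPM in mural replicates 1 to 6, and the glycerol synthesis enzyme Gpd1 at 75.6, 21.6, 109.7, 0, 66.4 and 0 CPM, so that both were highest in replicate 3 and without a count in replicate 4. Fabp4, which endothelium and other cells also use, stood at 36.4, 26.2, 83.7, 45.7, 16 and 53.9 CPM in the same order and was not near 0 in any library. At W4 Adipoq ranged over 0 to 11.4 CPM (median 4.03) in mural and 0 to 14.5 CPM (median 0) in gp38+CD26- libraries, and Gpd1 over 0 to 16.6 CPM (median 0.281) and 0 to 17.6 CPM (median 0.261). These genes were looked at after their values were seen.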
